A study of Mus musculus with 14 samples.

Results

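The genes described here build and run the mitotic spindle. They are 46 genes for motor proteins of the spindle, kinetochore and centromere proteins, spindle checkpoint proteins, mitotic kinases, cytokinesis factors and proteins of mitotic chromosome structure. Each was read from the probe set on the array that was annotated to that gene and to no other, and where several existed the brightest was to be taken. Every member found had 1 such probe. Of the 46 genes, 45 were measured this way, out of 22180 genes measured in all. Ncapg, a condensin subunit, was left out because its probe was also annotated to Lcorl. Tests were run on genes that exceeded a log2 level of 3.88, the median of the whole table, on 3 or more arrays. This held for 44 of the 45 members and for 13805 of all genes, and Zwilch, a kinetochore protein, was too dim. Cenpk was the 1 tested member that was above that level on fewer than 3 of the 8 old arrays, so it entered the test mainly through the young arrays.

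The cells were bone marrow cells sorted by flow cytometry as positive for the surface marker Sca1 and negative for the receptor Kit. The donors were female NCR-NU mice, an athymic nude strain that lacks normal T cell development and accepts transplanted tumors. The 4 groups were old tumor-bearing mice (3 arrays), old cancer-free mice (5 arrays), young tumor-bearing mice (3 arrays) and young cancer-free mice (3 arrays). Tumor-bearing mice carried primary tumors matched for size and cancer-free mice carried a Matrigel control, a basement membrane gel without tumor cells. The labels give age only as old or young, do not name the tumor cells, and call the 14 samples biological replicates of single mice. RNA was amplified from 500 pg of total RNA, and biotinylated for hybridisation to 1-colour arrays, whose number limits the precision. Levels were deposited as log2 values, so a difference of 1 is a 2-fold change.

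The gene of Sca1 is not analysed here. Kit, the receptor the cells were sorted to lack, had log2 levels from 5.25 to 7.03, above the table median on every array. The mean correlation of an array with the other 13, over all 41345 probes, ran from 0.908 (young tumor-bearing replicate 1) to 0.941 (young cancer-free replicate 1). Old tumor-bearing replicates 2 and 3 were at 0.912. The labels name no processing batch.

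When a cell divides, its chromosomes are compacted, attached by their kinetochores to spindle microtubules, held until every attachment is under tension, and then pulled apart before the cell is cleaved. Most of the genes involved are switched on late in the cell cycle and are silent in resting cells, so their transcripts in a tissue are commonly read as a measure of how many cells are dividing. In bone marrow such transcripts come mainly from progenitors of the blood lineages. In RNA from a sorted population, fewer dividing cells and less of these transcripts per dividing cell cannot be told apart.

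Because the members share a cell cycle timing, their promoters were read for the letters of the cell cycle genes homology region (CHR), TTTGAA, through which the DREAM and MuvB complexes are known to act, and for the CCAAT box. Both strands were searched in a window from 250 bases before to 50 bases after each start site in the RefSeq promoter table for GRCm38.p6, which held 39 of the 46 members. The CHR letters were in the windows of 30 of these 39 genes (76.9%), and in those of 5466 of 27025 genes in the table (20.2%). CCAAT was found for 28 members (71.8%), against 41.1% of all genes, and both stood in 1 window for 25 members (64.1%), against 8.0% of all genes. TATAAA, searched for comparison, was found for 2 members (5.1%), against 15.7% of all genes. Of the 30 members with CHR letters, 28 had them from 100 bases before the start onwards, and CHR and CCAAT letters overlapped in 1 member window. A match of letters is a description of the window and does not show that a factor binds there.

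The windows of the 3 genes that passed the age test below are printed whole, with CHR letters (TTTGAA or TTCAAA) and CCAAT letters (CCAAT or ATTGG) in capitals, 5′ to 3′ on the strand of the gene.
Kif23, chr9:61946750-61947049, minus strand: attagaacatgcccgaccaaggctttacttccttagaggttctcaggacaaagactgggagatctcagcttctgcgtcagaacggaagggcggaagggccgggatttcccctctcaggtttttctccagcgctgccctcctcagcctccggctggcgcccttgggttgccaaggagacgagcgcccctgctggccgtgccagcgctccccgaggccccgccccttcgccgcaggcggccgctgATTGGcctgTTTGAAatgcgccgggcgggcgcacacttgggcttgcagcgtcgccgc
Spdl1, chr11:34833592-34833891, minus strand: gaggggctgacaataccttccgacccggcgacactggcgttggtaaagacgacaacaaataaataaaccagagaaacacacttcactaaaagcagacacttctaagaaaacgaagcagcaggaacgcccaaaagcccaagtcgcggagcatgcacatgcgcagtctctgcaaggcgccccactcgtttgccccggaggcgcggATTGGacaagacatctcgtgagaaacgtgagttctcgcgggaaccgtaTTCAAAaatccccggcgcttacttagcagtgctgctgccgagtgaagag
Nuf2, chr1:169531415-169531714, minus strand: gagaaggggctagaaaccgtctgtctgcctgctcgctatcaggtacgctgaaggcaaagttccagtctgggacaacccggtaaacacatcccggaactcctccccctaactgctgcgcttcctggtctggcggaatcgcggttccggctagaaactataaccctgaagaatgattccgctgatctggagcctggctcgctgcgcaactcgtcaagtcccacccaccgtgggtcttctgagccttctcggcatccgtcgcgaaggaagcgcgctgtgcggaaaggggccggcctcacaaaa
Kif23 held CHR letters from base 3 to base 8 after the start and Spdl1 held them on the opposite strand from base 2 to base 7, both with CCAAT letters upstream. The Nuf2 window held neither set of letters.

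For 7 of the further members whose values are given below, all with CHR letters in the window, the match nearest to the start is shown. It stands in capitals with 20 bases before and 10 after, read on the strand on which it is TTTGAA.
Cenpa, chr5:30666882-30666917, plus strand: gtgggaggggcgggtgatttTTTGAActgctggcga
Cdc20, chr4:118437346-118437381, minus strand: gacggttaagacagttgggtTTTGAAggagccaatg
Plk1, chr7:122159445-122159480, plus strand: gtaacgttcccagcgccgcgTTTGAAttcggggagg
Aurka, chr2:172370523-172370558, minus strand: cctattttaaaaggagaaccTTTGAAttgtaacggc
Aspm, chr1:139454759-139454794, plus strand: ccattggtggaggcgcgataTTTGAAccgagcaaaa
Top2a, chr11:99024187-99024222, plus strand: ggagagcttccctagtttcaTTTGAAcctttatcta
Mki67, chr7:135716462-135716497, minus strand: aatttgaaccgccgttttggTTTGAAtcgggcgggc
The Mki67 stretch also holds another match, left in lower case. Smc2, Ndc80, Kif11, Prc1 and Cenpn also held CHR letters and are not shown. Bub1 and Birc5 had no CHR letters in the window, and Aurkb was not in the promoter table. Over the measured members in the promoter table, the median log2 difference between old and young mice was -0.94 for the 29 with CHR letters and -1.03 for the 9 without. Only the exact letters were searched, and the part of the CHR in the age difference was not tested.

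Old mice were set against young mice first, as the average of the difference in tumor-bearing mice and the difference in cancer-free mice. All 45 measured members had lower levels in old mice, where 45.1% of all 22180 genes measured were lower. The members' differences ran from -1.93 (Ndc80) to -0.21 (Smc4) on the log2 scale with a median of -0.86, beside a median of 0.03 over all genes measured. By limma with Benjamini-Hochberg adjustment over all genes tested, 3 members passed an adjusted p of 0.05, all lower in old mice, beside 0.0724% of the genes tested. They were Spdl1, Kif23 and Nuf2. At an unadjusted p under 0.05, 37 members were lower and 0 higher, beside 8.97% of tested genes lower and 4.44% higher. In 3 members (Spdl1, Top2a and Prc1) every old array lay below every young array, which was the case for 0.257% of all genes. An exact permutation test of the age labels within tumor-bearing and within cancer-free mice, two-sided over 1120 labellings and not adjusted, gave p under 0.05 for 33 of the 45 members, and its smallest possible value is 0.0008929. That test was run on the members only, so the count of 33 has no share over all genes beside it.

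**Figure D1:**
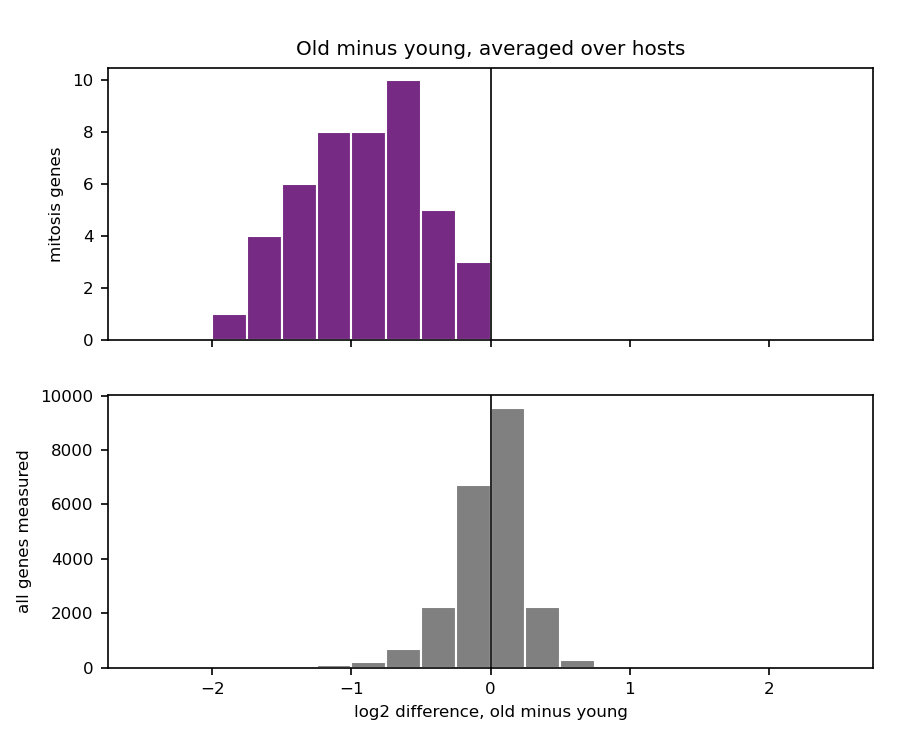
Number of genes (y axes) by log2 difference between old and young mice, averaged over tumor-bearing and cancer-free mice (x axis), for the mitosis genes (top) and for all 22180 genes measured (bottom). The 45 mitosis genes all lie left of 0, between -1.93 and -0.21, while the median of all genes is 0.03.

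Which genes passed depended on single arrays. The count of 3 was 0 without old tumor-bearing replicate 1, young tumor-bearing replicate 1 or 3, or young cancer-free replicate 3, was 1 without old tumor-bearing replicate 2, old cancer-free replicate 2, 4 or 5, or young tumor-bearing replicate 2, and was 11 without old tumor-bearing replicate 3. All 45 members stayed lower in old mice whichever array was left out.

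**Figure D2:**
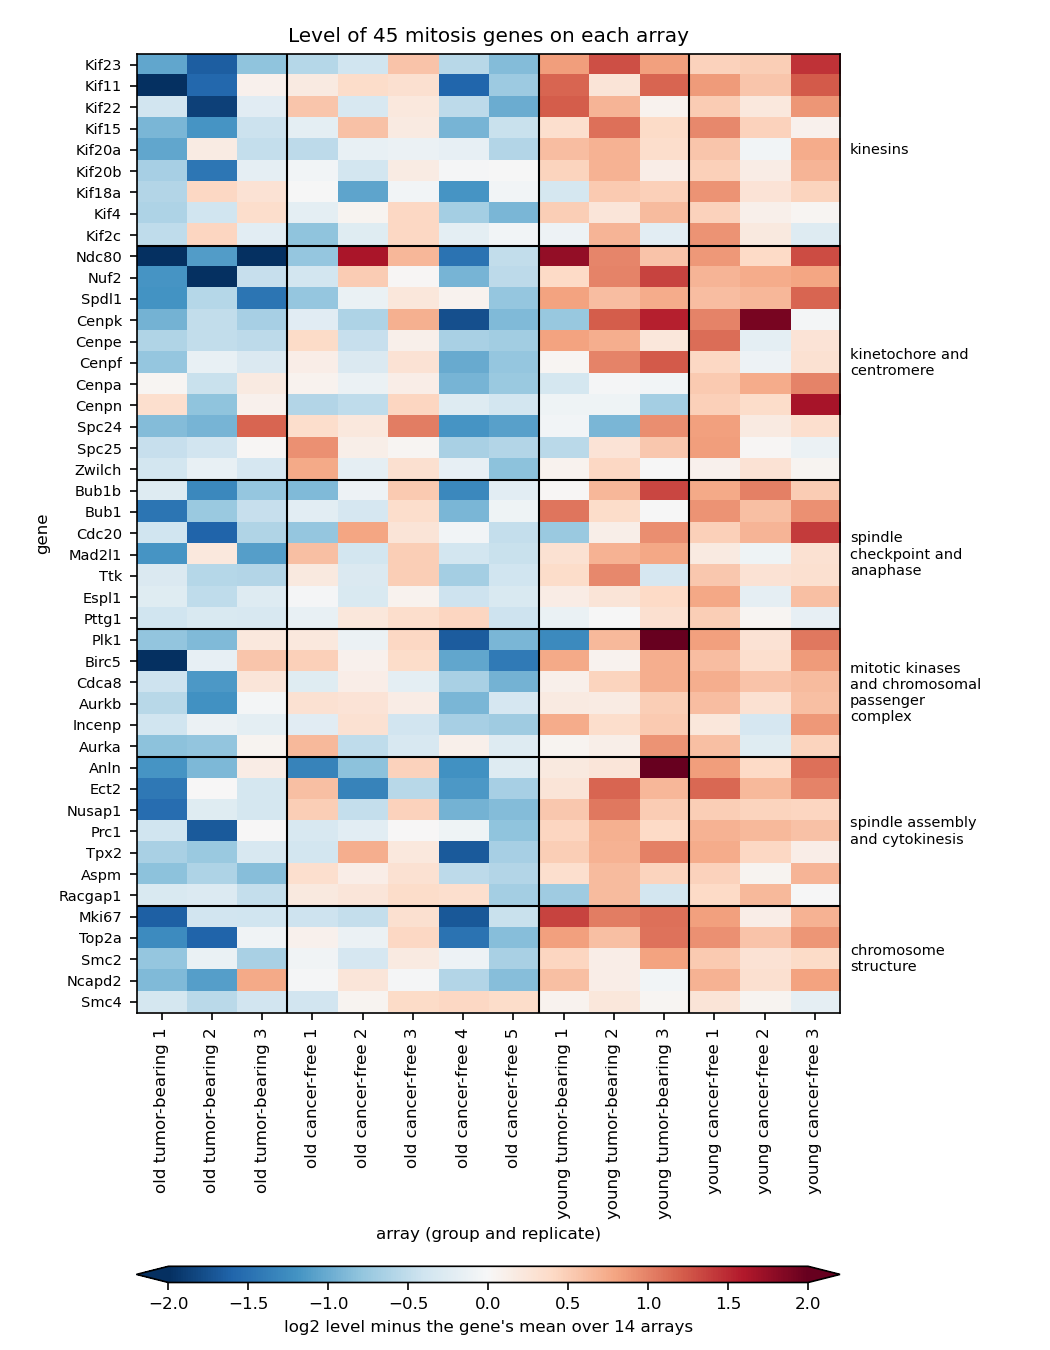
Log2 level of 45 mitosis genes (rows, grouped by role) on 14 arrays (columns), as the difference from each gene's mean over the arrays, with blue for lower and red for higher. Old arrays on the left are mostly blue and young arrays on the right mostly red, and within the old arrays tumor-bearing replicates 1 and 2 and cancer-free replicates 4 and 5 are the lowest.

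The kinetochore and centromere genes held 2 of the 3 genes that passed. Of 11 measured, all 11 were lower in old mice and 7 of the 10 tested had an unadjusted p under 0.05, with a median log2 difference of -0.85. Spdl1 encodes Spindly, an adaptor that brings dynein to the kinetochore. Old tumor-bearing arrays gave Spdl1 log2 levels of 3.46, 4.08 and 3.21 and old cancer-free arrays 3.90, 4.53, 4.88, 4.73 and 3.89, against 5.46, 5.29 and 5.41 on young tumor-bearing and 5.29, 5.32 and 5.83 on young cancer-free arrays. All 8 old values lay below all 6 young values, and the 3 old tumor-bearing arrays included the lowest. Spdl1 fell in old mice, with a difference of -1.45 ± 0.20 (SE) and an adjusted p of 0.0293 by limma. At least 1 group mean of Spdl1, Bub1, Ttk, Aspm, Cenpk and Zwilch was under the table median, so the sizes of their differences are not exact. The call was lost without old tumor-bearing replicate 1 (adjusted p = 0.0526), young tumor-bearing replicate 1 (0.0532) or 3 (0.0642), or young cancer-free replicate 3 (0.0815).

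Nuf2 is a subunit of the NDC80 complex, which binds the spindle microtubule at the kinetochore. For Nuf2 the log2 levels were 4.36, 3.48 and 5.08 with a tumor and 5.17, 6.04, 5.56, 4.61 and 5.01 without one in old mice, against 5.94, 6.53 and 6.88 with a tumor and 6.21, 6.27 and 6.33 without one in young mice. Old cancer-free replicate 2 was the 1 old array that lay among the young values. Nuf2 fell in old mice, with a difference of -1.57 ± 0.27 (SE) and an adjusted p of 0.0497 by limma. Of 14 arrays left out singly, only the fit without old tumor-bearing replicate 3 kept it under 0.05, and the others gave adjusted p-values from 0.0536 to 0.157.

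Ndc80 encodes the partner of Nuf2 in that complex. Ndc80 lay at 3.61, 4.66 and 3.60 on old tumor-bearing arrays and at 4.99, 7.40, 6.43, 4.29 and 5.28 on old cancer-free ones, against 7.52, 6.75 and 6.33 on young tumor-bearing and 6.63, 6.17 and 7.07 on young cancer-free ones. The old arrays spread widely, with the 3 tumor-bearing values low and old cancer-free replicate 2 above 5 of the 6 young arrays. The average difference was the lowest of the members at -1.93 ± 0.43 (SE), with an adjusted p of 0.0847 by limma that did not pass. Of the 3 old tumor-bearing values of Ndc80, 2 were under the table median, so the sizes of its differences are not exact. The 2 other subunits of the complex differed less. Spc24 averaged -0.39 and Spc25 -0.32, with unadjusted p of 0.389 and 0.251 by limma.

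Among the centromere proteins, Cenpa encodes the histone H3 variant that marks the centromere. Old tumor-bearing arrays gave Cenpa log2 levels of 5.73, 5.24 and 5.87 and old cancer-free arrays 5.76, 5.57, 5.82, 4.76 and 4.95, against 5.35, 5.67 and 5.63 on young tumor-bearing and 6.22, 6.44 and 6.68 on young cancer-free arrays. The 3 young cancer-free arrays were the highest, and the young tumor-bearing arrays lay among the old ones. The average age difference was -0.51 ± 0.19 (SE), with an adjusted p of 0.281 by limma. Cenpn, which encodes a reader of the Cenpa nucleosome, averaged -0.47 ± 0.25 (unadjusted p = 0.0888 by limma). Cenpe, a kinetochore motor, averaged -0.89 ± 0.23 and Cenpf, a large protein of the outer kinetochore, -0.85 ± 0.25. Cenpk, of the constitutive centromere network, averaged -1.44 ± 0.43, with both old group means under the table median. Zwilch, which was not tested, averaged -0.30.

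The kinesins, motor proteins that move along or take apart microtubules, were lower in old mice in 9 of 9 cases, with a median difference of -0.86, and 8 had an unadjusted p under 0.05. Kif23 encodes a subunit of centralspindlin, which bundles the microtubules between the separating chromosomes. For Kif23 the log2 levels were 4.37, 3.76 and 4.60 with a tumor and 4.85, 5.01, 5.98, 4.85 and 4.55 without one in old mice, against 6.25, 6.71 and 6.23 with a tumor and 5.87, 5.91 and 6.85 without one in young mice. All 3 old tumor-bearing values lay below every young value, and 1 old cancer-free value, replicate 3, reached the young range. Kif23 fell in old mice, with a difference of -1.66 ± 0.24 (SE), a 3.15-fold lower level, and an adjusted p of 0.0308 by limma. The adjusted p lay between 0.00538 and 0.0815 with single arrays left out and was above 0.05 in 9 of these 14 fits, which left out old tumor-bearing replicate 1 or 2, old cancer-free replicate 2, 4 or 5, any of the young tumor-bearing arrays, or young cancer-free replicate 3.

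Kif11 encodes the motor that pushes the spindle poles apart. Kif11 lay at 3.95, 4.68 and 6.33 on old tumor-bearing arrays and at 6.43, 6.61, 6.56, 4.65 and 5.52 on old cancer-free ones, against 7.41, 6.49 and 7.41 on young tumor-bearing and 7.09, 6.79 and 7.47 on young cancer-free ones. Old tumor-bearing replicates 1 and 2 and old cancer-free replicate 4 stood well below the rest, old cancer-free replicate 5 lay between, and the other old arrays were near the lowest young value. The difference averaged -1.64 ± 0.39 (SE; adjusted p = 0.0989 by limma). Kif22, a motor of the chromosome arms, averaged -1.12 and Kif15, which acts beside Kif11, -1.05. Kif20a and Kif20b, motors of the late spindle and midzone, averaged -0.86 and -0.84. Kif18a, which damps chromosome movement, averaged -0.60, the chromosome-bound motor Kif4 -0.57, and the microtubule depolymerase Kif2c -0.34. Kif2c was the 1 kinesin with an unadjusted p above 0.05 (0.190 by limma).

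The 7 genes of the spindle checkpoint and of anaphase had a median difference of -0.72, with 7 of 7 lower in old mice and 6 at an unadjusted p under 0.05. Bub1 encodes a checkpoint kinase at the kinetochore. Old tumor-bearing arrays gave Bub1 log2 levels of 3.001, 3.72 and 3.99 and old cancer-free arrays 4.24, 4.13, 4.81, 3.55 and 4.37, against 5.53, 4.82 and 4.45 on young tumor-bearing and 5.35, 5.06 and 5.38 on young cancer-free arrays. Every old tumor-bearing value was below every young value, and among the old cancer-free arrays only replicate 3 overlapped the young. The difference was -1.21 ± 0.23 (SE), and the adjusted p of 0.0601 by limma missed the threshold. Bub1b, the checkpoint protein BubR1, averaged -1.30 ± 0.29 (adjusted p = 0.0874 by limma). The other checkpoint genes differed less, with Mad2l1 at -0.72 and the kinase gene Ttk at -0.66.

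Cdc20 activates the anaphase-promoting complex, the ubiquitin ligase that the checkpoint holds back. For Cdc20 the log2 levels were 5.29, 4.08 and 5.08 with a tumor and 4.91, 6.48, 5.94, 5.64 and 5.20 without one in old mice, against 4.95, 5.81 and 6.62 with a tumor and 6.17, 6.36 and 7.09 without one in young mice. Old and young values overlapped, with old cancer-free replicate 2 among the highest and young tumor-bearing replicate 1 among the lowest. The difference was -0.94 ± 0.32 (SE; adjusted p = 0.232 by limma). Espl1, which encodes separase, the protease that cleaves cohesin, averaged -0.60 ± 0.16, and Pttg1, its inhibitor securin, averaged -0.22 ± 0.16 with an unadjusted p of 0.204 by limma.

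The mitotic kinases and the chromosomal passenger complex were lower in old mice in 6 of 6 cases, each at an unadjusted p under 0.05 and none passing the adjusted test, with a median difference of -0.85. Plk1 is the kinase that drives mitotic entry and spindle assembly. Plk1 lay at 4.93, 4.83 and 5.92 on old tumor-bearing arrays and at 5.92, 5.60, 6.13, 4.06 and 4.80 on old cancer-free ones, against 4.44, 6.36 and 7.70 on young tumor-bearing and 6.53, 6.003 and 6.77 on young cancer-free ones. The young tumor-bearing arrays spanned nearly the whole range, holding both the second lowest and the highest value of all arrays. The average difference was -1.04 ± 0.46 (SE; adjusted p = 0.350 by limma). It was -0.65 without young tumor-bearing replicate 3, and -1.47 without replicate 1 of that group.

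Aurka is the kinase of the spindle poles. Old tumor-bearing arrays gave Aurka log2 levels of 4.53, 4.55 and 5.39 and old cancer-free arrays 5.99, 4.84, 5.02, 5.44 and 5.09, against 5.40, 5.46 and 6.24 on young tumor-bearing and 5.94, 5.10 and 5.79 on young cancer-free arrays. Old cancer-free replicate 1 was above 5 of the 6 young arrays, so the groups overlapped. Its average difference was -0.61 ± 0.23 (SE; adjusted p = 0.291 by limma).

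Aurkb is the catalytic subunit of the passenger complex, which corrects faulty attachments and guides cytokinesis. For Aurkb the log2 levels were 5.28, 4.64 and 5.80 with a tumor and 6.14, 6.11, 5.99, 4.92 and 5.50 without one in old mice, against 6.03, 6.01 and 6.33 with a tumor and 6.45, 6.15 and 6.44 without one in young mice. The old tumor-bearing values were all below the young ones, and old cancer-free replicates 1 and 2 lay among the young tumor-bearing values. The average difference was -0.75 ± 0.22 (SE; adjusted p = 0.183 by limma). Birc5 encodes survivin, which anchors that complex at the centromere. Birc5 lay at 4.19, 6.27 and 6.99 on old tumor-bearing arrays and at 6.91, 6.52, 6.81, 5.40 and 5.02 on old cancer-free ones, against 7.20, 6.51 and 7.17 on young tumor-bearing and 7.06, 6.78 and 7.29 on young cancer-free ones. Old tumor-bearing replicate 1 and old cancer-free replicates 4 and 5 stood far below the rest, while the other 5 old arrays lay in or near the young range. The average difference was -1.03 ± 0.42 (SE; adjusted p = 0.314 by limma), and -0.62 without old tumor-bearing replicate 1. The other subunits averaged -0.94 ± 0.22 for Cdca8 (borealin) and -0.68 ± 0.20 for Incenp, the scaffold.

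Genes of spindle assembly and cytokinesis had the lowest role median, -1.06, with 7 of 7 lower and 6 at an unadjusted p under 0.05. Aspm encodes a protein of the spindle poles. Old tumor-bearing arrays gave Aspm log2 levels of 3.22, 3.43 and 3.19 and old cancer-free arrays 4.39, 4.17, 4.36, 3.52 and 3.46, against 4.38, 4.68 and 4.49 on young tumor-bearing and 4.51, 4.10 and 4.73 on young cancer-free arrays. The old tumor-bearing arrays were the lowest together with old cancer-free replicates 4 and 5, and old cancer-free replicates 1 to 3 lay within the young range. The difference was -0.85 ± 0.18 (SE), and the adjusted p by limma was 0.0799.

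Prc1 cross-links the microtubules of the midzone. For Prc1 the log2 levels were 5.59, 4.31 and 5.98 with a tumor and 5.67, 5.77, 5.99, 5.90 and 5.18 without one in old mice, against 6.42, 6.70 and 6.38 with a tumor and 6.68, 6.63 and 6.57 without one in young mice. Every old value was below every young value. Its difference was -1.06 ± 0.23 (SE; adjusted p = 0.0809 by limma). Ect2, which activates the small GTPase that drives the cleavage furrow, averaged -1.42 ± 0.31, and Anln, the scaffold anillin of that furrow, -1.48 ± 0.38. Nusap1 and Tpx2, which bind and nucleate spindle microtubules, averaged -1.07 and -1.05. Racgap1, the partner of Kif23 in centralspindlin, stood apart from it at -0.23 ± 0.23 (unadjusted p = 0.319 by limma).

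Of the 5 genes of chromosome structure, all were lower in old mice, with a median of -0.78, and 4 had an unadjusted p under 0.05. Mki67 encodes Ki-67, the coat protein of mitotic chromosomes that is stained as a proliferation marker. Mki67 lay at 6.10, 7.35 and 7.34 on old tumor-bearing arrays and at 7.32, 7.26, 8.05, 6.04 and 7.29 on old cancer-free ones, against 9.08, 8.77 and 8.84 on young tumor-bearing and 8.56, 7.87 and 8.44 on young cancer-free ones. Old tumor-bearing replicate 1 and old cancer-free replicate 4 were the lowest, and old cancer-free replicate 3 was the 1 old array in the young range. The difference was -1.53 ± 0.29 (SE), a 2.89-fold lower level, with an adjusted p of 0.0601 by limma that missed the threshold.

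Top2a encodes the topoisomerase that untangles sister chromatids. Old tumor-bearing arrays gave Top2a log2 levels of 6.09, 5.73 and 7.27 and old cancer-free arrays 7.43, 7.22, 7.76, 5.86 and 6.48, against 8.17, 7.94 and 8.43 on young tumor-bearing and 8.25, 7.91 and 8.23 on young cancer-free arrays. All old values lay below all young values, with the smallest gap between old cancer-free replicate 3 and young cancer-free replicate 2. The difference was -1.50 ± 0.30 (SE; adjusted p = 0.0743 by limma).

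Smc2 and Smc4 encode the ATPase pair at the core of condensin. For Smc2 the log2 levels were 6.31, 6.95 and 6.43 with a tumor and 7.01, 6.75, 7.26, 6.98 and 6.43 without one in old mice, against 7.51, 7.22 and 7.89 with a tumor and 7.60, 7.37 and 7.47 without one in young mice. All but 1 young value exceeded every old value, the exception being young tumor-bearing replicate 2, just under old cancer-free replicate 3. Smc2 averaged -0.78 ± 0.17 (SE; adjusted p = 0.0799 by limma). Smc4 averaged -0.21 ± 0.15, the difference nearest to 0 among the members, and the condensin I subunit gene Ncapd2 averaged -0.74 ± 0.28.

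**Figure D3:**
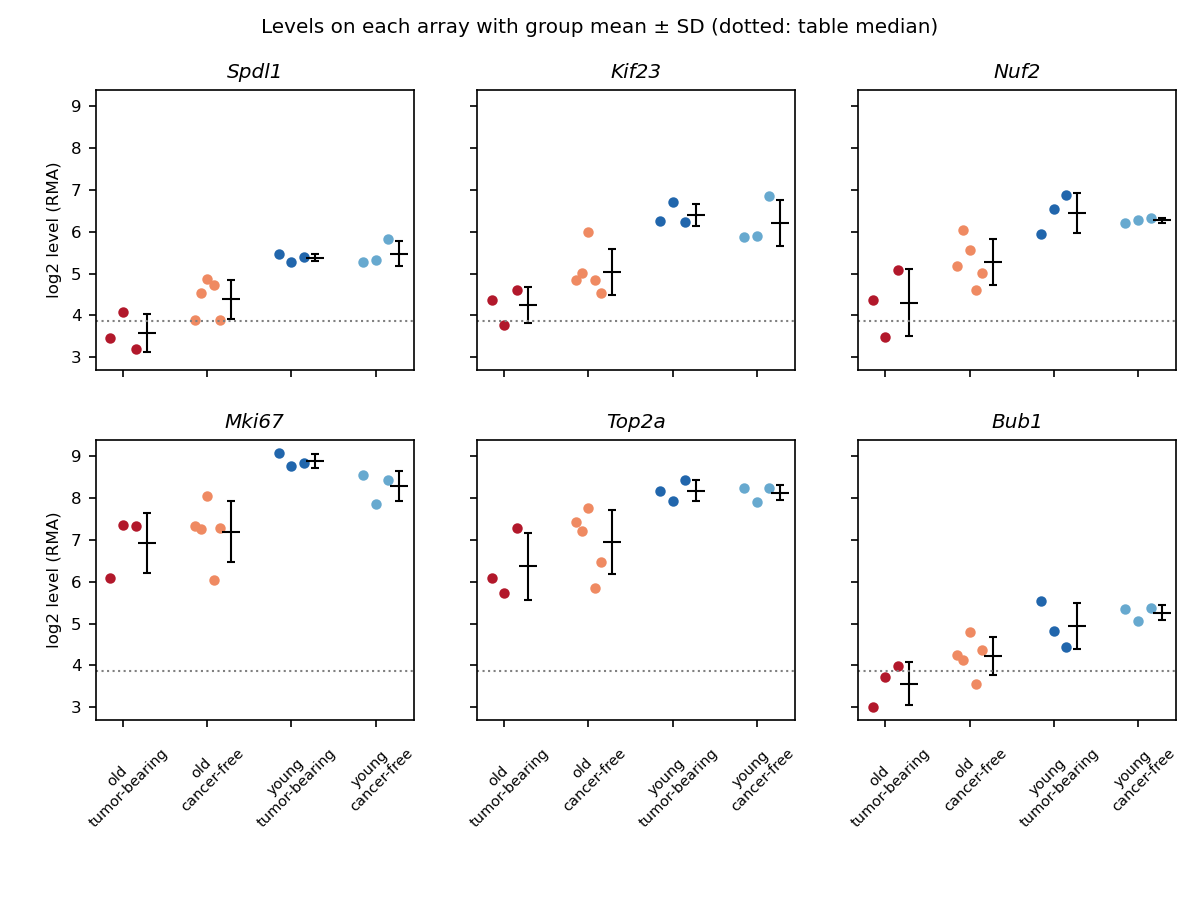
Log2 level of 6 mitosis genes (y axes) on each array (points) in old tumor-bearing, old cancer-free, young tumor-bearing and young cancer-free mice, with the group mean and SD beside the points. Spdl1 and Top2a show no old array in the young range, while Nuf2, Kif23, Bub1 and Mki67 each show a single old cancer-free array there.

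The age comparison was then made within each host. Old tumor-bearing mice were lower than young tumor-bearing mice in 43 of 45 members, beside 45.1% of all genes, with a median of -1.13. No member passed the adjusted test by limma, as was true of all genes (0%), and the smallest adjusted p was 0.0650 (Spdl1). At an unadjusted p under 0.05, 30 members were lower and 0 higher, beside 6.35% of tested genes lower and 3.75% higher. In 30 members every old array lay below every young array, beside 5.53% of all genes, where 3 arrays stand against 3. Ndc80 had the lowest difference, -2.91 ± 0.63 (SE), followed by Kif23 at -2.15 ± 0.36 and Nuf2 at -2.15 ± 0.40. Of the 3 old tumor-bearing arrays, 2 were under the table median for Ndc80, 1 for Kif23 and 1 for Nuf2. The sizes of these differences are therefore not exact. Spdl1 differed by -1.80 ± 0.30 and Aspm by -1.24 ± 0.27. The 2 members not lower were the centromere genes Cenpn, at 0.16 ± 0.38, and Cenpa, at 0.06 ± 0.29. The sign of Cenpn was not stable, being -0.071 without old tumor-bearing replicate 1 and -0.036 without young tumor-bearing replicate 3. Leaving out old cancer-free replicate 3, which enters through the shared spread, gave 1 member that passed (Kif23, adjusted p = 0.0404 by limma).

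In cancer-free mice, old mice were lower than young mice in 44 of 45 members, beside 48.9% of all genes, with a median of -0.75. Again no member passed by limma (0% of all genes), the smallest adjusted p being 0.448. At an unadjusted p under 0.05, 23 members were lower and 0 higher, beside 5.17% of tested genes lower and 2.48% higher, and the count of 23 was 13 without young cancer-free replicate 1 and 15 without replicate 3. In 14 members all 5 old arrays lay below all 3 young arrays, beside 3.17% of all genes. The count was 23 once young cancer-free replicate 2 or, alternatively, old cancer-free replicate 3 was left out. With fewer arrays any gene separates more easily, and the share over all genes was not computed for these smaller sets. The smallest p-values belonged to Cenpa at -1.08 ± 0.26, Spdl1 at -1.09 ± 0.27, Ect2 at -1.56 ± 0.41 and Kif23 at -1.16 ± 0.32 (SE each). Smc4 was the 1 member above 0, at 0.13 ± 0.19, and it was -0.019 with the replicate number as a block and between 0.017 (young cancer-free replicate 3 left out) and 0.26 (old cancer-free replicate 1 left out) in fits without a single array.

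**Figure D4:**
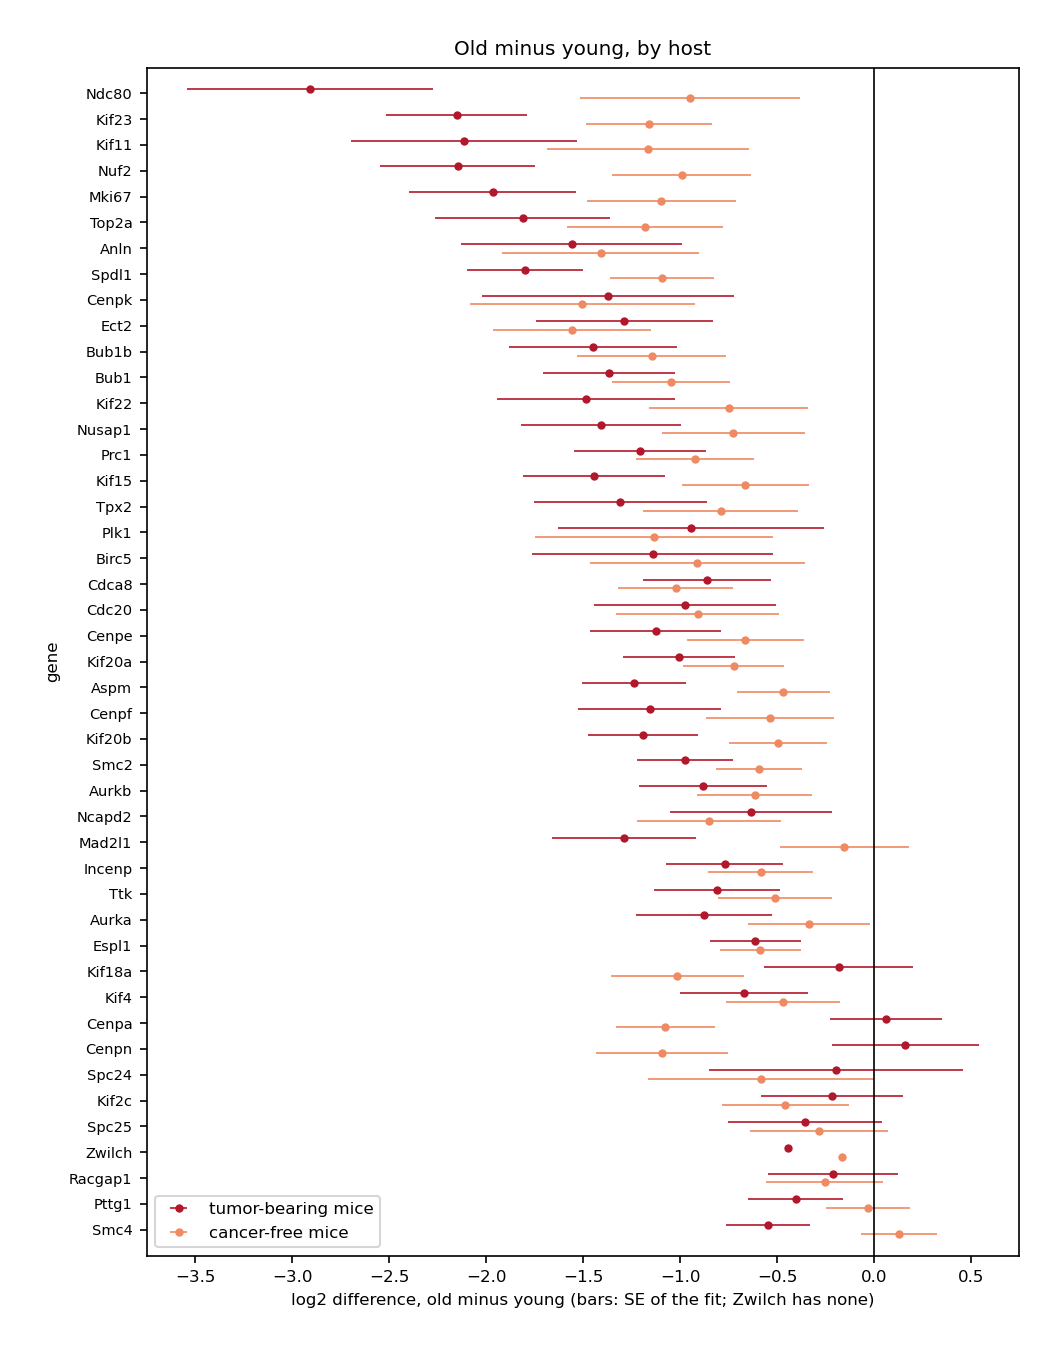
Log2 difference between old and young mice (x axis, with the SE of the fit) for each of 45 mitosis genes (rows) in tumor-bearing mice (dark points) and in cancer-free mice (light points). In tumor-bearing mice 43 of 45 points lie left of 0, with Ndc80 at -2.91, and in cancer-free mice 44 of 45 do.

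Tumor-bearing mice were set against cancer-free mice next. Averaged over ages, tumor-bearing mice were lower than cancer-free mice in 37 of 45 members, with a median of -0.21, while 40.3% of all genes were lower. That median was -0.12 without old cancer-free replicate 3. No member passed by limma (0% of all genes), the smallest adjusted p among members being 0.432. At an unadjusted p under 0.05, 2 members were lower, beside 6.01% of tested genes, and 0 were higher, beside 4.23%. In 0 members did all tumor-bearing arrays lie below all cancer-free arrays, beside 0.0947% of all genes. The 2 lower members were Cdc20 at -0.78 ± 0.32 and Spdl1 at -0.45 ± 0.20 (SE). Bub1 differed by -0.49 ± 0.23 and Racgap1 by -0.47 ± 0.23, while Cenpf had the highest difference at 0.23 ± 0.25. Cenpf was at 0.12 without young tumor-bearing replicate 3 and at 0.41 without replicate 1 of that group, and dropping old cancer-free replicate 4 gave 0.15.

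Within old mice, the tumor-bearing arrays were lower than the cancer-free arrays in 38 of 45 members, beside 40.7% of all genes, with a median of -0.32 that was -0.19 without old cancer-free replicate 3. None passed by limma (0% of all genes; smallest adjusted p 0.393), and 7 were lower at an unadjusted p under 0.05, beside 5.56% of tested genes. Smc4 differed by -0.60 ± 0.19, Ndc80 by -1.72 ± 0.57, Spdl1 by -0.80 ± 0.27 and Aspm by -0.70 ± 0.24 (SE each). Aspm was the 1 member whose 3 tumor-bearing values all lay below the 5 cancer-free values, beside 2.11% of all genes. Kif18a had the highest difference, 0.51 ± 0.34, which was 0.83 without old tumor-bearing replicate 1 and 0.33 without replicate 2 of that group, and dropping old cancer-free replicate 4 gave 0.34.

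Within young mice, the tumor-bearing arrays were lower in 24 members and higher in 21, beside 44.3% of all genes lower, with a median of -0.01 that ran from -0.10 without young cancer-free replicate 2 to 0.064 without replicate 1 of that group. None passed by limma (0% of all genes; smallest adjusted p 0.886). Cenpa, at -0.90 ± 0.29, and Cenpn, at -1.12 ± 0.38, were the 2 members lower at an unadjusted p under 0.05, beside 3.30% of tested genes, and the 2 whose tumor-bearing arrays all lay below the cancer-free arrays, beside 5.33% of all genes. Cenpn lay at 4.89, 3.75 and 4.63 on old tumor-bearing arrays and at 3.96, 4.04, 4.97, 4.28 and 4.18 on old cancer-free ones, against 4.46, 4.45 and 3.87 on young tumor-bearing and 5.03, 4.91 and 6.20 on young cancer-free ones. Young cancer-free replicate 3 was far above all other arrays for Cenpn, and without it the difference was -0.71. The next smallest p-values belonged to Cdc20, at -0.75 ± 0.47 (unadjusted p = 0.136 by limma), and Cenpf, at 0.54 ± 0.37 (0.161), and neither passed. Without young tumor-bearing replicate 1 Cdc20 was at -0.32 and Cenpf at 0.90, without young tumor-bearing replicate 3 they were at -1.16 and 0.31, and without young cancer-free replicate 3 Cdc20 was at -0.47. In 3 members (Mki67, Mad2l1 and Nusap1) the young tumor-bearing arrays all lay above the young cancer-free arrays, beside 7.76% of all genes. Mki67 had the highest difference, 0.61 ± 0.43 (SE), with an unadjusted p of 0.180 by limma, and it was 0.40 without young cancer-free replicate 2.

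The difference between the tumor effect in old mice and that in young mice was tested as an interaction. It was below 0 in 34 members and above 0 in 11, beside 48.3% of all genes below 0, with a median of -0.30, and none passed by limma (0% of all genes; smallest adjusted p 0.976). The median was -0.49 without old tumor-bearing replicate 3 and -0.46 without young tumor-bearing replicate 1. At an unadjusted p under 0.05, 4 members were below 0 (1.85% of tested genes) and 2 above 0 (2.57%). The 2 above 0 were Cenpa, at 1.14 ± 0.39, and Cenpn, at 1.25 ± 0.51 (SE), and Smc4 differed by -0.68 ± 0.29 and Ndc80 by -1.96 ± 0.85. The same contrast is the age difference in tumor-bearing mice minus that in cancer-free mice, so no single gene was shown to differ by age more in 1 host than in the other.

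The median level of the members differed from array to array, and correlations among the members were not computed. The median deviation of the 45 members from their own means was -0.78, -0.58 and -0.32 on the old tumor-bearing arrays and -0.06, -0.13, 0.31, -0.66 and -0.65 on the old cancer-free arrays, against 0.33, 0.62 and 0.53 on the young tumor-bearing and 0.62, 0.31 and 0.60 on the young cancer-free arrays. Old cancer-free replicate 3 was the 1 old array at the level of the lowest young arrays, and replicates 4 and 5 of that group were as low as old tumor-bearing replicates 1 and 2. Over all genes the same medians lay between -0.05 and 0.05. Of the 45 members, 44 had their lowest value on an old array, 15 of them on old tumor-bearing replicate 2 and 10 on old cancer-free replicate 4. The share over all genes was not computed for this count. Old arrays outnumber young arrays, so by chance alone a lowest value falls more often on an old array than on a young one. The members' median SD within a group was 0.52 in old tumor-bearing and 0.54 in old cancer-free marrow, against 0.34 in young tumor-bearing and 0.32 in young cancer-free mice. Over all tested genes the median SD was 0.31 in old tumor-bearing and 0.32 in old cancer-free marrow, against 0.31 in young tumor-bearing and 0.23 in young cancer-free mice.

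**Figure D5:**
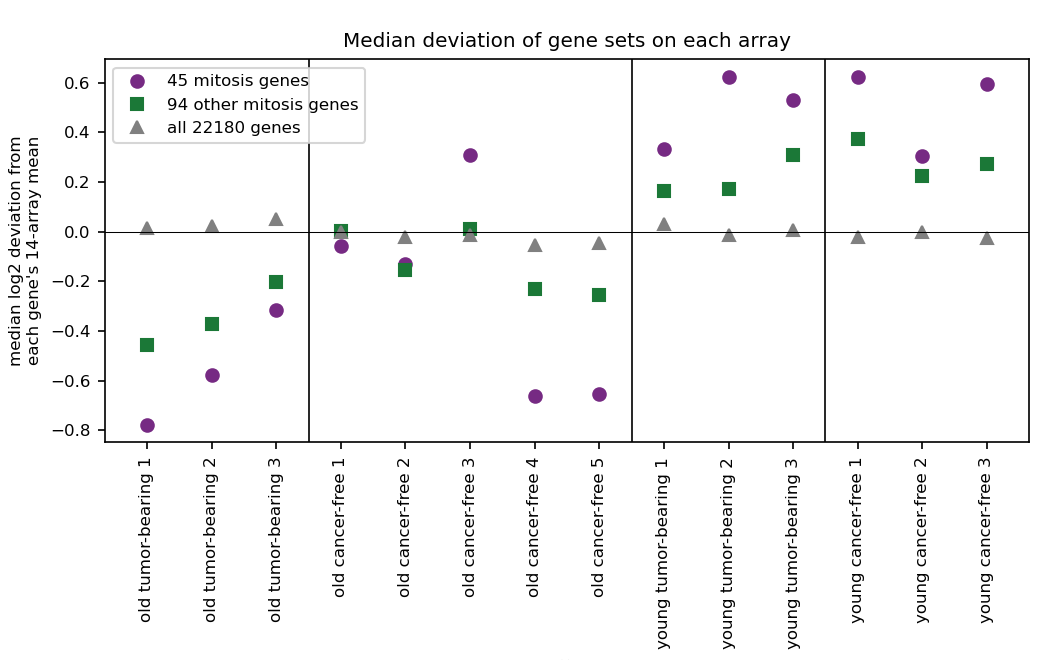
Median over genes of the log2 level minus the gene's own mean (y axis) on each of 14 arrays (x axis, by group and replicate), for 45 mitosis genes, 94 other mitosis genes and all 22180 genes measured. The 45 genes run from -0.78 to 0.31 on old arrays and from 0.31 to 0.62 on young arrays, while all genes stay between -0.05 and 0.05.

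Other genes of mitosis, none of them a member, were read from a list of 108 symbols, of which 94 were measured and 92 tested. The list held cyclin B and its kinase, further centromere and kinetochore proteins, shugoshins, cohesin and condensin II, augmin and centriole genes. In the average of old against young, 85 of 94 were lower, beside 45.1% of all genes measured, with a median of -0.47. At an unadjusted p under 0.05, 47 were lower and 0 higher, beside 8.97% of tested genes lower and 4.44% higher. None passed the adjusted test by limma. The smallest p-values belonged to Stil, a centriole assembly factor, at -1.04 ± 0.19 (SE, adjusted p = 0.0601), and Ncaph, the kleisin of condensin I, at -1.26 ± 0.25 (0.0739). Sass6, the protein of the centriole cartwheel, followed at -1.32 ± 0.27 (0.0768), and Kif18b, a plus-end kinesin, at -1.06 ± 0.23 (0.0847). In 4 of the 94 genes every old array lay below every young array, beside 0.257% of all genes.

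Marker lists of other cells that the sort could hold were read beside the members. Over all genes measured, 45.1% were lower in old mice. Of tested genes, 8.97% were lower and 4.44% higher at an unadjusted p under 0.05. Of 13 plasmacytoid dendritic cell markers measured, 12 were lower in old mice and 9 had an unadjusted p under 0.05, with a median difference of -0.99. Their mean level per array ran from 5.88 to 6.48 in old tumor-bearing and 5.68 to 7.15 in old cancer-free marrow, against 7.04 to 7.85 in young tumor-bearing and 6.77 to 7.83 in young cancer-free mice. Siglech, the surface marker of these cells, averaged 7.14 in old tumor-bearing and 7.77 in old cancer-free marrow, against 9.04 in young tumor-bearing and 8.80 in young cancer-free mice. The part of these cells in the mitosis genes was not tested.

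Markers of granulocyte and monocyte progenitors were lower in old mice in 6 of 8 cases, 1 of them at an unadjusted p under 0.05, with a median of -0.39 and means per array of 4.09 to 4.99 in old tumor-bearing and 3.87 to 4.89 in old cancer-free marrow, against 4.76 to 5.23 in young tumor-bearing and 4.52 to 4.82 in young cancer-free mice. The granule gene Mpo averaged 5.61 in old tumor-bearing and 5.62 in old cancer-free marrow, against 7.66 in young tumor-bearing and 6.41 in young cancer-free mice. The defining genes Ms4a3 and Fcnb averaged under the table median. Of 11 markers of cycling B cell progenitors, 9 were lower with a median of -0.07, and Rag2 and Vpreb1 averaged under the table median. Among them 1 was lower (Dntt) and 1 higher (Il7r) at an unadjusted p under 0.05 by limma. Il7r, the receptor for interleukin-7, averaged 9.80 in old tumor-bearing and 9.75 in old cancer-free marrow, against 9.08 in young tumor-bearing and 9.46 in young cancer-free mice. Dntt, the polymerase that adds bases at rearranging receptor genes, averaged 5.04 in old tumor-bearing and 5.17 in old cancer-free marrow, against 6.52 in young tumor-bearing and 6.25 in young cancer-free mice. The mean of that list per array ran from 6.17 to 6.44 in old tumor-bearing and 5.82 to 6.50 in old cancer-free marrow, against 6.29 to 6.78 in young tumor-bearing and 6.18 to 6.68 in young cancer-free mice. The part of these progenitors in the mitosis genes was not tested. Of 8 erythroid markers measured, 2 were lower in old mice, 1 of them at an unadjusted p under 0.05 and 0 higher at that level, and Klf1, Gata1, Rhag and Car1 averaged under the table median. The 1 was Tfrc, the transferrin receptor, which averaged 5.17 in old tumor-bearing and 6.47 in old cancer-free marrow, against 7.15 in young tumor-bearing and 6.74 in young cancer-free mice. Of 9 stem and progenitor cell markers, 3 were lower, with a median of 0.03, and Mecom, Meis1 and Gata2 averaged under the table median. Of these 9, 2 were lower (Flt3 and Kit) and 0 higher at an unadjusted p under 0.05 by limma. Flt3, a receptor of early lymphoid progenitors and dendritic cells, averaged 4.45 in old tumor-bearing and 4.36 in old cancer-free marrow, against 6.49 in young tumor-bearing and 5.27 in young cancer-free mice. Kit differed by -0.50 between old and young mice. The part of these cells in the mitosis genes was not tested. Of 10 T cell markers, 5 were higher and 0 lower in old mice at an unadjusted p under 0.05, with a median of 0.68 over the list. The list mean was 7.75 in old tumor-bearing and 7.65 in old cancer-free marrow, against 6.88 in young tumor-bearing and 7.65 in young cancer-free mice. The young tumor-bearing mean was thus the lowest, and the cancer-free means were alike.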

How the data were processed

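The deposited table holds log2 values for 41345 probes on 14 arrays, made by the authors with RMA (R 3.2.0, oligo 1.32.0), as the submitters' processing notes list. Neither the set of arrays normalised jointly nor the array's genome build is given in the sources used here. Values run from 0.29 to 13.78, with none missing. In the platform annotation 23521 probes carried 1 gene symbol, 1814 several and 16010 none. Probes with several or no symbol were left out, and the brightest probe stood for a gene. Genes above the table median (3.88) on at least 3 arrays were tested.

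The 4 group means were fitted over all tested genes with limma 3.58.1 (R 4.3.3) and moderated variances (residual degrees of freedom 10, prior 3.86). The 7 contrasts were taken, each two-sided, with Benjamini-Hochberg adjustment within each at 0.05. Simulated data, with 200 genes changed by known amounts, served to test this fit. Each limma p-value sets a difference of group means against the spread of arrays within groups. That spread joins the mice, as labelled, with the amplification and the arrays, which cannot be told apart here.

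The members, the other gene lists and the tests were chosen with earlier results of these data known. Values are given per array for members that passed, for the 8 members with the smallest p for age and for a fixed set of well known members (Mki67, Top2a, Bub1, Plk1, Aurka, Aurkb, Birc5, Cdc20, Cenpa and Aspm). In each other contrast the 4 members with the smallest p and those at either end are named. Values of Ndc80, Kif11, Prc1 and Cenpn per array, and members outside this rule, were added after their values were seen. Marker lists were read for 10 kinds of cells. Those for natural killer cells (6 of 8 lower in old mice, median -0.35), group 2 innate lymphoid cells (4 of 6, -0.31), plasma cells (3 of 6, 0.0037) and stromal and endothelial cells (6 of 10, -0.04) are given only here. In each of the first 2 of these lists 1 marker was lower at an unadjusted p under 0.05, and 0 in the other 2, with 0 higher.

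The alternatives were array weights, cyclic loess, median centring of each array, no filter, a stricter filter (5.48), the mean of a gene's probes, a variance trend with a robust prior, a fit of only those groups that a contrast compares, replicate number as a blocking factor, and single arrays left out. Leaving out both arrays with the lowest mean correlation was added after seeing the data.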

Additional observations from a re-analysis of the deposited data

Results flagged for a closer look

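Racgap1, the partner of Kif23 in centralspindlin, was at a log2 level of 6.06 on old cancer-free replicate 5, where the other 4 arrays of that group lay between 6.92 and 7.10. The gap to the nearest of them was 0.828 of the group's whole range. The other groups hold 3 arrays each and were not examined this way. It was the 1 member of 45 with such an array, and about 1 in 20 groups is expected to show 1 by chance.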

How the results depend on the processing

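The members' median age differences stayed below 0, from -0.99 to -0.75 on average, -1.31 to -0.90 in tumor-bearing mice and -0.92 to -0.48 in cancer-free mice, where -0.48 came with the replicate number as a block. The medians for tumor were less stable, from -0.34 to -0.12 on average, -0.62 to -0.19 in old mice and -0.10 to 0.064 in young mice, and that of the interaction from -0.60 to -0.20. The members lower in old mice stayed 45 of 45 on average, 41 to 44 in tumor-bearing mice and 40 to 44 in cancer-free mice. The number passing the adjusted test did not hold. For age on average it was 3 as reported, 8 with array weights, 10 with median centring, 6 without the least correlated arrays (young tumor-bearing replicate 1 and old tumor-bearing replicate 3), and 0 to 11 with single arrays left out. For age in tumor-bearing mice it was 0 as reported, 2 with median centring, 1 without those arrays, and 0 to 1 with single arrays left out. Members with every old array below every young array numbered 3 as reported on average, 5 with median centring, 6 without the least correlated arrays and 2 with cyclic loess, and ran from 3 to 10 with single arrays left out, 10 being without old cancer-free replicate 3. In cancer-free mice they numbered 14 as reported, 10 with cyclic loess, 18 with median centring and 14 to 23 with single arrays left out. For these alternatives the share over all genes was not computed, and with fewer arrays any gene separates more easily. Members at an unadjusted p under 0.05 in cancer-free mice numbered 23 as reported and 13 to 27 with single arrays left out. With the replicate number as a block, 0 members passed for age on average and 13 were at an unadjusted p under 0.05 in cancer-free mice. In 18 same-number pairs of arrays the correlations of their deviations from the group means ran from -0.08 to 0.09. In the 54 pairs with different numbers they ran from -0.13 to 0.10. With groups this small, these ranges cannot show whether equal replicate numbers mark related mice or shared handling. Results with this block are given only here, apart from Smc4 in cancer-free mice, which it turned to -0.019, against 0.13 as reported. Cenpn in tumor-bearing mice, 0.16 as reported, ran from -0.071 without old tumor-bearing replicate 1, through -0.036 without young tumor-bearing replicate 3, to 0.50 without old tumor-bearing replicate 2. The cause of these changes was not tested. Groups of 3 to 5 arrays limit the precision, and 6 members had a group mean under the table median, which is not a measured background. Further members lay just above that level, among them Spc25 (3.94) and Ndc80 (3.96) in old tumor-bearing mice.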
